A study of Mus musculus with 31 samples.

Results

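The genes described here are 10 enzymes and regulators of de novo lipogenesis, the synthesis of fatty acids from acetyl-CoA: Thrsp, Srebf1, Mlxipl, Acly, Acaca, Fasn, Me1, Elovl6, Scd1 and Aacs. They were chosen by gene symbol, not by their values, and are 10 of the 43629 genes in the deposited count table. All 10 of them were among the 17057 genes kept by the filter on low counts. Liver RNA was sequenced from 31 mouse pups of the C57Bl/6J strain background at postnatal day 14, 1 library per pup. Every pup, the controls included, lacked the deiodinase genes Dio1 and Dio2 (Dio1KO/Dio2KO), whose enzymes turn thyroxine (T4) into triiodothyronine (T3), the hormone with the higher affinity for the nuclear receptors. Pups that also lacked Pax8 (Dio1KO/Dio2KO/Pax8KO), without whose transcription factor no thyroid follicular cells develop, received T4 (8 livers), T3 (6 livers), T3 and T4 together (7 livers, T3+T4) or vehicle (5 livers, called vehicle). Littermate controls carried 1 working Pax8 copy on the same deiodinase-null background (Dio1KO/Dio2KO/Pax8Het) and received vehicle (5 livers, called control). Injections were given every other day from postnatal day 2, and the labels give no doses.

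De novo lipogenesis runs in the cytosol of hepatocytes: ATP citrate lyase makes acetyl-CoA from citrate, acetyl-CoA carboxylase makes malonyl-CoA, and fatty acid synthase builds palmitate with NADPH that malic enzyme helps to supply. Palmitate is then elongated and desaturated. Insulin acts on these genes largely through SREBP-1c, glucose through ChREBP, and thyroid hormone through its receptors. In adult rodent liver Thrsp, Me1 and Fasn are textbook thyroid hormone induced genes, while the suckling pup takes in a milk diet rich in fat and has low hepatic lipogenesis.

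The promoter windows of 4 of the genes are shown, because Thrsp, Me1, Aacs and Fasn had the largest fold changes of the 10 genes after T3+T4 and their windows differ in the elements they carry. The sequences are RefSeq windows of build GRCm38.p6, from 250 bases before to 50 bases after the annotated start, written 5′ to 3′ along the gene's strand. Capitals mark CCAAT boxes (CCAAT or its reverse complement ATTGG) and GC boxes (GGGCGG or its reverse complement CCGCCC), searched on both strands. The Thrsp window is chr7:97417501-97417800 on the minus strand and holds 2 CCAAT boxes.
Thrsp: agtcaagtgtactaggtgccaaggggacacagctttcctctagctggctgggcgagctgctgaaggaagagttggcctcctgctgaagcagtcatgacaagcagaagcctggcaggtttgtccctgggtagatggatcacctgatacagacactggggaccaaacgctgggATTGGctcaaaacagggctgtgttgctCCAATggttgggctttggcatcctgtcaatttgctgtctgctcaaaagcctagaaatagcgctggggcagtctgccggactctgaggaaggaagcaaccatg
The Fasn window is chr11:120824498-120824797 on the minus strand and holds 3 CCAAT boxes, 2 of which overlap on opposite strands.
Fasn: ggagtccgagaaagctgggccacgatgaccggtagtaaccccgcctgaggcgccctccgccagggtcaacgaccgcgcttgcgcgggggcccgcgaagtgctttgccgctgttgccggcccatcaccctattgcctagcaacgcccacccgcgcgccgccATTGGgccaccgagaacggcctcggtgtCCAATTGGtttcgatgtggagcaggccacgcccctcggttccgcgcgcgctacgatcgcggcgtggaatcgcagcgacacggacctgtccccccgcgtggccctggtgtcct
The Aacs window is chr5:125475623-125475922 on the plus strand and holds none of the motifs searched.
Aacs: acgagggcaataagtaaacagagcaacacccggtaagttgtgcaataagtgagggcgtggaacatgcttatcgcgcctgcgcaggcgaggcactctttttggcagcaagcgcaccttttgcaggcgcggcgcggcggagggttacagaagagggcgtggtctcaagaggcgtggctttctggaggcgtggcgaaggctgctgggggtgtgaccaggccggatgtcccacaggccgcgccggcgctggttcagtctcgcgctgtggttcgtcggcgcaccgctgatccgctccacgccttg
The first of 2 Me1 windows is chr9:86695865-86696164 on the minus strand and holds 4 GC boxes.
Me1: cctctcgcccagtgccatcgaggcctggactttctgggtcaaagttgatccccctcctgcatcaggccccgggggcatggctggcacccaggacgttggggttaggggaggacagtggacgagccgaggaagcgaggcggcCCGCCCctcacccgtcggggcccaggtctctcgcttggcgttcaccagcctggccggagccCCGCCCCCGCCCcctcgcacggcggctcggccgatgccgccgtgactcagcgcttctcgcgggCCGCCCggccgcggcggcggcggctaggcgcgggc
Of all 32851 promoter windows in the table, 37.4% held a CCAAT box and 35.7% a GC box. The half-site AGGTCA, to which thyroid hormone receptors and other nuclear receptors bind, was in 16.3% of all windows and in those of Acly and Elovl6 among the 9 of 10 genes that matched by symbol (all but Scd1). A pair of AGGTCA half-sites in the same direction 4 bases apart was in 0.0152% of all windows and in none of these genes. The E-box CACGTG was in 7.15% of all windows and in 1 window of Mlxipl, and the sterol element TCACNCCAC was in 1.24% of all windows and in another window of Mlxipl. A match describes the letters of the window only.

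Library totals ran from 4383769 to 7158919 counts, and their group means were 5343109 after T4, 6070280 after T3, 6353684 after T3+T4, 5297107 in vehicle and 5413170 in control livers. The highest count of any of the 10 genes was between 0.0693 and 0.545 counts per exonic base, below the level near 2 at which counts in this table stop rising. Hepatocyte markers matched the labelled tissue: 4 of 5 listed markers (Alb, Apoa1, Ttr and Hnf4a) summed to 1460 to 2190 CPM (counts divided by the TMM-scaled library total and set to a common depth) in all libraries, while Tf was not analysed here. Mean CPM of Dio1 was 34.3 after T4, 135 after T3, 187 after T3+T4, 12.7 in vehicle and 169 in control livers, so a transcript of the disrupted gene was counted (which exons were deleted is not given in the labels), while group means of Dio2 and Pax8 were at most 3.19 and 2.74 CPM. The labels give a sex for 20 pups, and in 4 of these (T4 animal 54, T3 animal 68, T3+T4 animal 79 and vehicle animal 67) it differed from the sex read from Xist and 4 Y-linked genes. By those genes females made up 2 of 8 T4, 5 of 6 T3, 2 of 7 T3+T4, 2 of 5 vehicle and 4 of 5 control livers. In 12 libraries 7 pancreatic acinar or 7 skeletal muscle markers averaged at least 5 CPM: T4 animals 54, 69 and 71, T3 animals 60 and 64, T3+T4 animals 78, 79, 80 and 85, vehicle animals 2019 and 37, and control animal 47. For the 10 genes, calls that change without either set of libraries are given with and without them. Calls of the other genes named below, and the correlations, were not examined without either set. The sum of 6 white adipocyte markers was 31 to 93.8 CPM after T4, 38.2 to 72.6 after T3, 24.3 to 47.4 after T3+T4, 34.9 to 69.6 in vehicle and 32 to 52.8 in control livers. Most of it was Fabp4, and 3 of the 6 markers were at the lowest count in every control library. The sum of the brown adipocyte markers Ucp1 and Cidea was at most 1.4 CPM except in T3 animal 60, where it was 15.4 CPM. The part of the adipocytes in the results was not tested. In whole liver, fewer cells of a type and less RNA per cell cannot be told apart.

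Pups without a thyroid that received vehicle had lower lipogenic transcripts than controls, and most of these genes rose after T3+T4. All calls use edgeR's quasi-likelihood test with Benjamini-Hochberg adjustment over the 17057 genes at 0.05, log2 fold changes are given ± SE, and the first-named group is divided by the other. In vehicle against control livers 6 of the 10 genes fell and 0 rose, where 4.71% of all genes fell and 4.92% rose. After T3+T4 against vehicle 6 rose and 0 fell (7.33% and 8.45% of all genes), and they were the same 6 genes, Thrsp, Fasn, Aacs, Me1, Acaca and Mlxipl. Both comparisons share the vehicle livers. After T3 against vehicle 4 rose and 0 fell (3.53% and 3.24% of all genes). After T4 against vehicle 0 rose and 0 fell (0.211% and 0.199% of all genes). At an unadjusted p under 0.05 in edgeR were 4 of the 10 (Fasn, Me1 and Aacs higher, Scd1 lower) and 2167 of all genes. DESeq2 called 0 of the 10 and 235 of all genes there. The median log2 fold change over the 10 genes was -0.39 in vehicle against control, 0.26 after T4, 0.48 after T3 and 0.69 after T3+T4 against vehicle, beside medians over all genes between 0 and 0.01. Of the 10 genes, 7 were above vehicle after T4, 7 after T3 and 9 after T3+T4, whether or not they passed the test. Srebf1, Acly, Elovl6 and Scd1 passed the test in none of the 10 comparisons made with edgeR.

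**Figure D1:**
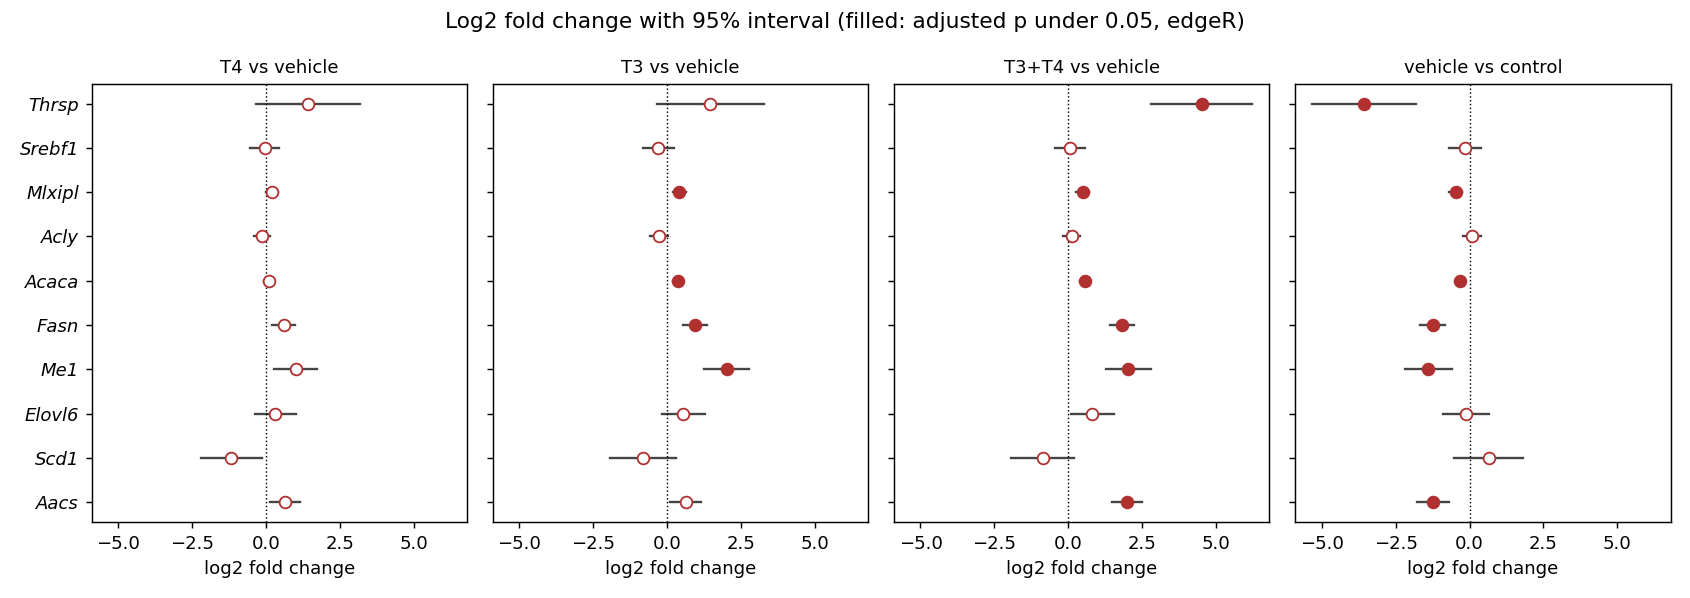
Log2 fold change (x axis) of each of the 10 genes (y axis) in 4 comparisons, with the 95% interval of edgeR's fit as a line; filled points have an adjusted p under 0.05. Filled points lie right of 0 after T3 (4 genes) and T3+T4 (6 genes) and left of 0 in vehicle against control (6 genes), and there are none after T4.

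Among the hormone-treated groups, T3+T4 stood above T4 for 5 of the 10 genes, with 0 below, where 4.06% of all genes were higher and 4.55% lower. Against T3, T3+T4 was higher for 1 gene, Aacs, and lower for 0 (0.0117% and 0% of all genes in edgeR, with 5 of the 10 genes and 2165 of all genes at an unadjusted p under 0.05; DESeq2 called 3 and 155). Of the 17057 genes, 2 passed the test between T3+T4 and T3, both higher after T3+T4: Aacs and Tkt, the transketolase of the pentose phosphate pathway. T4 and T3 differed in 0 of the 10 genes in either direction (0.158% of all genes were higher and 0.393% lower after T4). At an unadjusted p under 0.05 were 3 of the 10 and 2422 of all genes. DESeq2 called 1 of the 10, Acaca, and 234 of all genes. Against control, T4 was lower for 1 gene, Fasn, and higher for 0 (1.71% and 1.83% of all genes). T3 differed from control in 0 of the 10 genes (0.17% of all genes higher, 0.041% lower). Here 2 of the 10 and 2962 of all genes had an unadjusted p under 0.05, and DESeq2 called 0 of the 10 and 338 of all genes. T3+T4 differed from control in 0 of the 10 genes and 0% of all genes in both directions, with 3 of the 10 and 1226 of all genes at an unadjusted p under 0.05. DESeq2 called 50 of all genes there but gave an adjusted p to only 1 of the 10, Srebf1, which it did not call, so it does not bear on the other 9. These comparisons share libraries with each other and with those against vehicle.

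**Figure D2:**
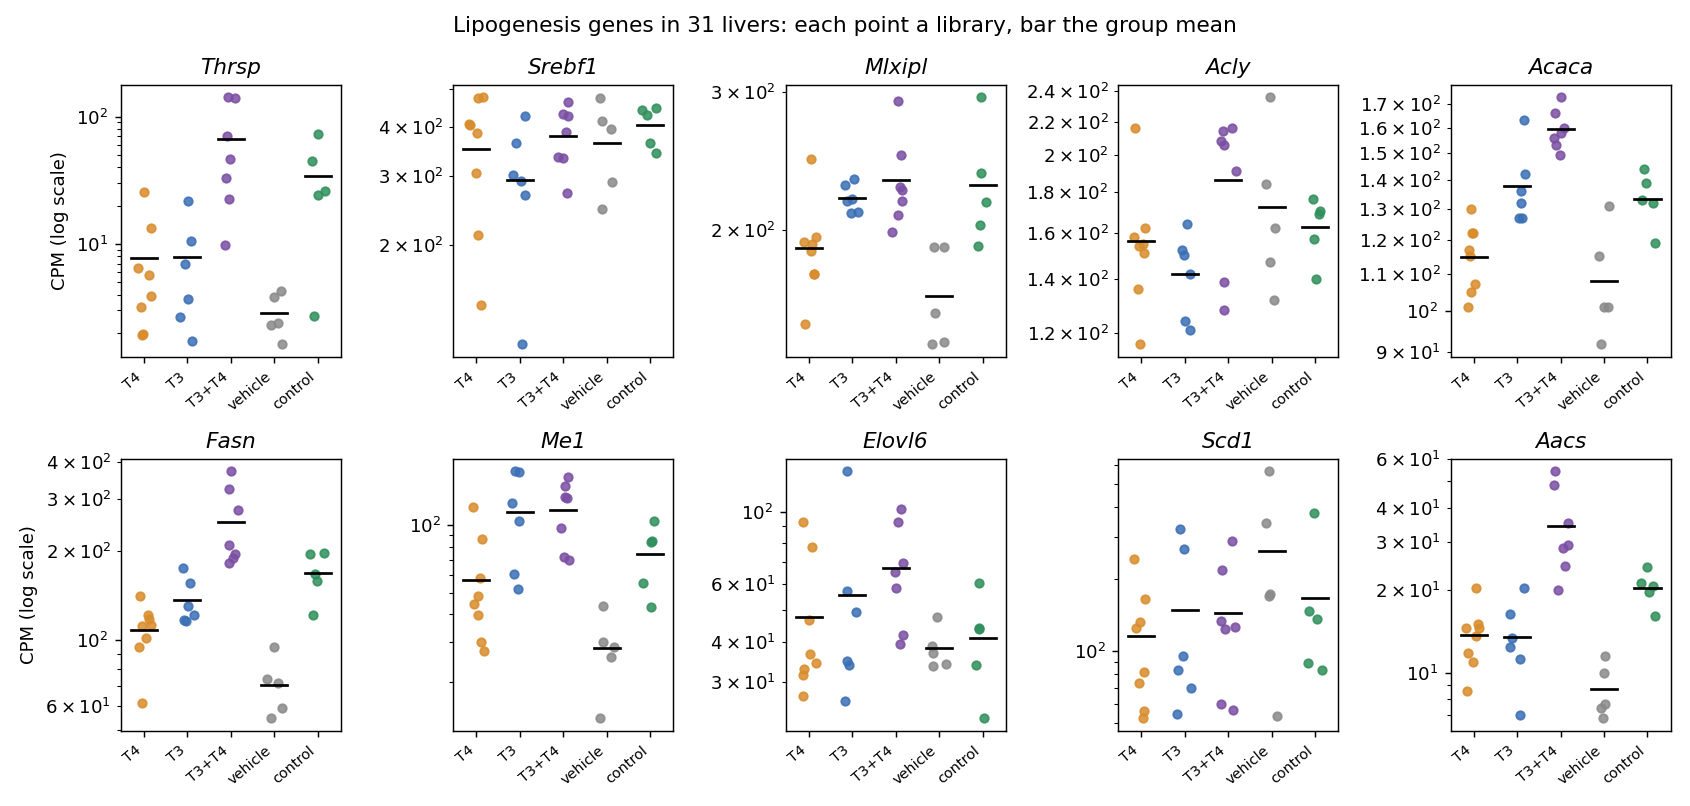
CPM after TMM scaling (y axis, log scale) of each gene in the 31 livers by group, each point a library and each bar the group mean. All 7 T3+T4 livers lie above all 5 vehicle livers for Thrsp, Mlxipl, Acaca, Fasn, Me1 and Aacs, while the groups overlap for Srebf1, Acly, Elovl6 and Scd1.

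Thrsp (ENSMUSG00000035686, chr7:97412938-97417730, minus strand of mm10) encodes a small acidic protein that promotes lipogenesis in liver and other lipogenic tissues. In T4 livers it ranged from 1.93 to 25.5 CPM with a median of 4.81, in T3 livers from 1.72 to 21.6 with a median of 5.33, and in T3+T4 livers from 9.81 to 142 with a median of 46.5. Vehicle livers had 1.62, 2.29, 2.39, 3.83 and 4.24 CPM, and control livers had 2.71, 24.2, 26.2, 44.8 and 73.4 CPM. Vehicle livers were uniformly low and all 7 T3+T4 livers were above them, whereas control animal 47 lay within the vehicle range and 4 of 8 T4 and 3 of 6 T3 livers were above it. Thrsp fell by 3.57 ± 0.86 in vehicle against control (11.8-fold lower, adjusted p = 0.00848) and rose by 4.51 ± 0.83 after T3+T4 against vehicle (22.8-fold, 95% interval 2.81 to 6.22 on the log2 scale, adjusted p = 0.000496). Its values were 1.41 ± 0.86 after T4 (adjusted p = 0.527) and 1.46 ± 0.89 after T3 against vehicle (adjusted p = 0.352), with intervals from -0.35 to 3.17 and from -0.35 to 3.27. Thrsp was 8.59-fold higher after T3+T4 than after T4 (3.10 ± 0.61, adjusted p = 0.00205). Its 8.28-fold difference from T3 (3.05 ± 0.67) missed the threshold at an adjusted p of 0.0557, with 6 of 7 T3+T4 livers above the highest T3 liver. That difference passed without T3 animal 60 or T3+T4 animal 78 or 79, with library total as a covariate and with DESeq2 (adjusted p = 0.0036). These were 3 of 13 fits with 1 library left out and 2 of 13 other settings. It did not pass in the rest, and over all settings its adjusted p reached 0.242. T4 livers were 2.16 ± 0.65 below control (-2.16, adjusted p = 0.0579), a difference that passed without control animal 47 or T4 animal 40 (adjusted p = 0.0256 and 0.0144). The spread of Thrsp was wide within every group except vehicle: the coefficient of variation was 104% after T4, 94.8% after T3, 81.9% after T3+T4, 38.7% in vehicle and 77.3% in control livers.

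Srebf1 (ENSMUSG00000020538, chr11:60199089-60222581, minus strand) encodes SREBP-1, whose isoform SREBP-1c switches on the genes of fatty acid synthesis; reads of its isoforms are summed here, and its 3′ end overlaps Rai1 on the other strand. Per exonic kilobase it had the highest level of the 10 genes, with a mean of 63.3 RPKM (CPM per kilobase of exon) over all libraries. It ranged from 141 to 475 CPM with a median of 395 after T4, from 112 to 426 with a median of 297 after T3, and from 272 to 461 with a median of 388 after T3+T4. Vehicle livers had 247, 289, 394, 413 and 472 CPM and control livers 342, 363, 429, 442 and 446 CPM. The groups overlapped throughout, and the lowest values were in T3 animal 61 (112 CPM) and T4 animal 46 (141 CPM). Against vehicle its log2 fold changes were -0.05 ± 0.24 after T4, -0.30 ± 0.26 after T3 and 0.06 ± 0.25 after T3+T4, with 95% intervals from -0.55 to 0.44, -0.83 to 0.22 and -0.45 to 0.57. In vehicle against control it was -0.16 ± 0.27 (interval -0.71 to 0.39, adjusted p = 0.766).

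Mlxipl (ENSMUSG00000005373, chr5:135089890-135138382, plus strand) encodes ChREBP, the transcription factor through which glucose raises lipogenic and glycolytic genes. T4 livers ranged from 152 to 246 CPM with a median of 190, T3 livers from 210 to 232 with a median of 218, and T3+T4 livers from 199 to 292 with a median of 225. Vehicle livers had 143, 144, 157, 190 and 190 CPM and control livers 191, 203, 217, 236 and 295 CPM. All T3, T3+T4 and control livers were above all vehicle livers, and the T3 livers were the closest to each other, with a coefficient of variation of 4.05%. Mlxipl fell by 0.47 ± 0.12 in vehicle against control (1.39-fold lower, adjusted p = 0.00938). It rose by 0.41 ± 0.11 after T3 (adjusted p = 0.0227) and by 0.49 ± 0.11 after T3+T4 against vehicle (1.40-fold, adjusted p = 0.00251), and was 0.20 ± 0.10 above vehicle after T4 (adjusted p = 0.424). Without the 12 libraries with raised acinar or muscle markers these changes were -0.57, 0.49 and 0.59 with adjusted p = 0.0512, 0.183 and 0.056, so all 3 calls were lost. Other fits without the T3 call were those without vehicle animal 38 or 55 (adjusted p = 0.0669 and 0.0728), with sex or library total as a covariate (adjusted p = 0.0509 and 0.115) and in animals 54 to 85 alone (adjusted p = 0.131). The difference between T3+T4 and T4 was 0.29 ± 0.09 with an adjusted p of 0.0543, and it passed without T4 animal 40 (0.35, adjusted p = 0.0123). It also passed without T3+T4 animal 84, with DESeq2, with scaling by library total alone, with no filter and with a mean of at least 5 CPM. Over all settings its adjusted p reached 0.433. An antisense gene is annotated within Mlxipl, and the use of strand in counting is not stated.

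Acly (ENSMUSG00000020917, chr11:100476353-100528000, minus strand), which makes cytosolic acetyl-CoA, varied little between groups. It ranged from 116 to 216 CPM with a median of 155 after T4, from 121 to 164 with a median of 146 after T3, and from 128 to 216 with a median of 206 after T3+T4. Vehicle livers had 132, 147, 162, 184 and 236 CPM and control livers 140, 157, 169, 170 and 176 CPM. The groups overlapped in all 10 comparisons. Against vehicle its log2 fold changes were -0.14 ± 0.14 after T4, -0.27 ± 0.15 after T3 and 0.11 ± 0.14 after T3+T4, with adjusted p = 0.732, 0.279 and 0.644. Its lowest unadjusted p was 0.00794, for T3+T4 against T3 (0.38 ± 0.14, adjusted p = 0.254), with 5 of 7 T3+T4 livers above the highest T3 liver. Without the 4 libraries of differing sex it passed in T3+T4 against T4 (0.39, adjusted p = 0.0306), where the value with them was 0.25 ± 0.12 (adjusted p = 0.233).

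Acaca (ENSMUSG00000020532, chr11:84129672-84401651, plus strand), the cytosolic acetyl-CoA carboxylase and the committed step of the pathway, changed by small amounts with little spread. T4 livers ranged from 101 to 130 CPM with a median of 116, T3 livers from 127 to 163 with a median of 134, and T3+T4 livers from 149 to 173 with a median of 158. Vehicle livers had 91.7, 101, 101, 115 and 131 CPM and control livers 119, 132, 133, 139 and 144 CPM. All T3+T4 livers lay above all T4, vehicle and control livers, and they overlapped the T3 livers only at T3 animal 68. Acaca fell by 0.31 ± 0.08 in vehicle against control (adjusted p = 0.0173). It rose by 0.35 ± 0.08 after T3 (1.28-fold, adjusted p = 0.0078) and by 0.56 ± 0.08 after T3+T4 against vehicle (1.48-fold, adjusted p = 1.4e-05), and was 0.09 ± 0.08 above vehicle after T4 (adjusted p = 0.666). After T3+T4 it was 0.47 ± 0.07 above T4 (adjusted p = 5.68e-05). Although T3+T4 and control livers did not overlap, that difference (0.26 ± 0.08) had an adjusted p of 0.406. Leaving out control animal 49, vehicle animal 37 or vehicle animal 38 ended the call in vehicle against control (adjusted p = 0.0584, 0.0552 and 0.0529), and so did leaving out the acinar or muscle libraries (-0.33, adjusted p = 0.0724) or fitting the compared groups alone (-0.31, adjusted p = 0.0609). The T3 call was lost without the acinar or muscle libraries (0.39, adjusted p = 0.0983), in animals 54 to 85 alone (0.36, adjusted p = 0.0808), and when vehicle and T3 livers were fitted by themselves (0.35, adjusted p = 0.0909). T4 was 0.26 ± 0.07 below T3 (-0.26, adjusted p = 0.0791; 0.0257 with DESeq2). A protein-coding gene on the other strand, Gm11437, lies within Acaca.

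Fasn (ENSMUSG00000025153, chr11:120805846-120824547, minus strand) encodes fatty acid synthase, and its promoter is shown above with its CCAAT boxes. T4 livers ranged from 61.6 to 141 CPM with a median of 113, T3 livers from 116 to 176 with a median of 126, and T3+T4 livers from 183 to 372 with a median of 210. Vehicle livers had 54.7, 59.2, 72, 74.2 and 95 CPM and control livers 122, 158, 168, 196 and 197 CPM. All T3, T3+T4 and control livers were above all vehicle livers, all T3+T4 livers were above all T3 and T4 livers, and 6 of 8 T4 livers were above the highest vehicle liver. Fasn passed the test in 5 of 10 comparisons, more than any other of the 10 genes. It fell by 1.24 ± 0.20 in vehicle against control (2.36-fold lower, adjusted p = 0.000271) and rose by 0.94 ± 0.20 after T3 (1.92-fold, adjusted p = 0.00469) and 1.81 ± 0.20 after T3+T4 against vehicle (3.51-fold, interval 1.41 to 2.21, adjusted p = 5.03e-07). These calls held without the acinar or muscle libraries (-1.54, 1.14 and 2.10, adjusted p = 0.00112, 0.0284 and 0.000218). After T4 against vehicle it was 0.60 ± 0.19 with an unadjusted p of 0.00309 and an adjusted p of 0.134. It was higher after T3+T4 than after T4 (1.21 ± 0.16, 2.31-fold, adjusted p = 3.25e-05). Against T3 the difference was 0.87 ± 0.18 (1.83-fold) with an adjusted p of 0.0502, just above the threshold. The adjusted p was 0.0112 without the 4 libraries of differing sex, 0.00159 with DESeq2, and between 0.0179 and 0.0285 when T3 animal 60 or 68 or T3+T4 animal 78 or 79 was left out. It was 0.307 without the acinar or muscle libraries, 0.102 with sex as a covariate and 0.0737 in animals 54 to 85, with log2 fold changes of 0.96, 0.94 and 0.87. After T4 it was lower than control (-0.64 ± 0.18, adjusted p = 0.0443), a call that held in 3 of 13 fits with 1 library left out, namely those without control animal 47 or T4 animal 40 or 54. That call was also lost without the acinar or muscle libraries (-0.82, adjusted p = 0.0557) and with sex as a covariate (-0.56, adjusted p = 0.103).

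Me1 (ENSMUSG00000032418, chr9:86581371-86695953, minus strand) encodes the cytosolic malic enzyme, which yields NADPH. T4 livers ranged from 27.5 to 120 CPM with a median of 46.4, T3 livers from 51.8 to 174 with a median of 115, and T3+T4 livers from 69.9 to 163 with a median of 132. Vehicle livers had 13.8, 25.9, 28.5, 30.3 and 43.6 CPM and control livers 43.3, 55.3, 83.7, 85.2 and 104 CPM. All T3 and T3+T4 livers were above all vehicle livers, 5 of 8 T4 livers were above the highest vehicle liver, and control animal 42 fell just inside the vehicle range. Me1 fell by 1.39 ± 0.39 in vehicle against control (2.61-fold lower, adjusted p = 0.023). It rose by almost the same amount after T3 (2.01 ± 0.38, 4.02-fold, adjusted p = 0.00199) and after T3+T4 against vehicle (2.03 ± 0.37, 4.10-fold, adjusted p = 0.000456). T3+T4 minus T3 was 0.03 ± 0.32, with an interval from -0.62 to 0.68. After T4 it was 1.00 ± 0.36 above vehicle (2.00-fold, adjusted p = 0.209) and 1.01 ± 0.31 below T3 (unadjusted p = 0.00307, adjusted p = 0.134). The difference of T4 from T3 passed without T3 animal 62 or T4 animal 43 (adjusted p = 0.0462 and 0.0483). With sex as a covariate it was -0.67 (adjusted p = 0.534), where 6 of 8 T4 livers were male and 5 of 6 T3 livers female by their genes, and without the 4 libraries of differing sex it was -0.79 (adjusted p = 0.339). T3+T4 exceeded T4 by 1.03 ± 0.30 (adjusted p = 0.03), a call lost without T4 animal 58, 69 or 70 or T3+T4 animal 78, 84 or 85 (adjusted p = 0.0511 to 0.0641), without the 4 libraries of differing sex (0.94, adjusted p = 0.0834) and without the acinar or muscle libraries (0.70, adjusted p = 0.592). Leaving out control animal 47, 49 or 50 or vehicle animal 55 ended the call in vehicle against control (adjusted p = 0.0522 to 0.0585), and so did leaving out the 4 libraries of differing sex (-1.39, adjusted p = 0.0531). Without the acinar or muscle libraries the values against vehicle were 2.00 after T3 and 1.81 after T3+T4, and vehicle against control was -1.22, with adjusted p = 0.132, 0.091 and 0.227. An antisense gene is annotated at the start of Me1.

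Elovl6 (ENSMUSG00000041220, chr3:129532355-129638495, plus strand) elongates palmitate to stearate. It ranged from 27.3 to 92.8 CPM with a median of 35.6 after T4, from 26.3 to 133 with a median of 42 after T3, and from 39.2 to 102 with a median of 65.4 after T3+T4. Vehicle livers had 33.7, 34.2, 37, 38.7 and 47.7 CPM and control livers 23.3, 33.9, 43.6, 44 and 60.6 CPM. Vehicle livers were close together, and 5 of 7 T3+T4 livers were above all of them. Its value after T3+T4 against vehicle was 0.81 ± 0.35 (unadjusted p = 0.0282, adjusted p = 0.115), and it passed when those groups were fitted alone (0.82, adjusted p = 0.0264). After T4 and T3 against vehicle it was 0.32 ± 0.34 and 0.54 ± 0.36, and the T3 value was 0.08 without T3 animal 68. In T3+T4 against T4 it passed without the 4 libraries of differing sex (0.79, adjusted p = 0.042), where the value with them was 0.49 ± 0.30 (adjusted p = 0.346). An antisense gene overlaps the first bases of Elovl6.

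Scd1 (ENSMUSG00000037071, chr19:44394455-44407879, minus strand), the stearoyl-CoA desaturase that makes oleate, had its highest group mean in vehicle livers. It ranged from 52.2 to 241 CPM with a median of 103 after T4, from 54.6 to 322 with a median of 89 after T3, and from 56.5 to 287 with a median of 126 after T3+T4. Vehicle livers had 53.4, 169, 172, 344 and 565 CPM and control livers 82.9, 88.8, 136, 146 and 378 CPM. The vehicle livers held both the highest value of all (animal 55) and one of the lowest (animal 67), a 10.6-fold range, and overlapped every other group. Against vehicle its values were -1.17 ± 0.50 after T4, -0.81 ± 0.54 after T3 and -0.87 ± 0.52 after T3+T4, with adjusted p = 0.321, 0.408 and 0.27. The interval after T4 ran from -2.20 to -0.14, so a fall of several fold and almost none both lay within it. In vehicle against control it was 0.65 ± 0.57 (adjusted p = 0.508). Scd1 shares sequence with Scd2 and Scd3, and the counting of reads shared between such genes is not stated.

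Aacs (ENSMUSG00000029482, chr5:125475814-125517410, plus strand) encodes acetoacetyl-CoA synthetase, which returns ketone bodies to lipid and sterol synthesis in the cytosol. It had the lowest level of the 10 genes, with a mean of 4.81 RPKM over all libraries. T4 livers ranged from 8.54 to 20.3 CPM with a median of 14, T3 livers from 7.02 to 20.3 with a median of 12.9, and T3+T4 livers from 20 to 54.4 with a median of 29.2. Vehicle livers had 6.81, 7.44, 7.67, 9.97 and 11.5 CPM and control livers 16.1, 19.6, 20.7, 21.3 and 24.3 CPM. Control and vehicle livers did not overlap, all T3+T4 livers were above all vehicle livers, and 6 of 7 T3+T4 livers were above every T4 and every T3 liver. Aacs fell by 1.23 ± 0.26 in vehicle against control (2.35-fold lower, adjusted p = 0.00343). It rose by 1.98 ± 0.25 after T3+T4 against vehicle (3.94-fold, interval 1.47 to 2.49, adjusted p = 4.08e-06), while T4 and T3 were 0.65 ± 0.24 and 0.64 ± 0.26 above vehicle (adjusted p = 0.234 and 0.135). The calls against control and after T3+T4 held without the acinar or muscle libraries (-1.41 and 2.20, adjusted p = 0.00647 and 0.000434). T4 and T3 differed by 0.02 ± 0.22 (interval -0.43 to 0.47). T3+T4 was higher than T4 by 1.32 ± 0.20 (2.50-fold, adjusted p = 0.000138) and than T3 by 1.34 ± 0.22 (2.53-fold, interval 0.89 to 1.79, adjusted p = 0.0197), the lowest p of all genes in that comparison. The call against T3 was lost without T3 animal 61 or T3+T4 animal 72, 84 or 85, in animals 54 to 85 alone (1.34, adjusted p = 0.0737), and when the 2 groups were fitted by themselves, with log2 fold changes of 1.20 to 1.66 over all settings.

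By mean level the groups were ordered T3+T4, control, T3, T4 and vehicle for Thrsp, Fasn and Mlxipl, T3+T4, control, T4, T3 and vehicle for Aacs, and T3+T4, T3, control, T4 and vehicle for Me1 and Acaca. No neighbouring pair in these orders passed edgeR's test for any of the 6 genes, while T3+T4 and vehicle, at the ends, differed in all 6. Mean Fasn, for example, was 108 ± 23.2 CPM after T4 (SD, n = 8), 136 ± 24.7 after T3 (n = 6), 250 ± 74.9 after T3+T4 (n = 7), 71.0 ± 15.8 in vehicle (n = 5) and 168 ± 30.9 in control livers (n = 5). Mean Me1 was 56.8 ± 31.5 CPM after T4, 115 ± 52.7 after T3, 117 ± 37.3 after T3+T4, 28.4 ± 10.7 in vehicle and 74.4 ± 24.7 in control livers. Adding T4 to T3 left Me1 within 0.68 log2 units of T3 by its 95% interval, and gave a called difference for Aacs alone. Whether the T3+T4 effect differed between these genes was not tested.

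The counts in the comparisons with vehicle and control depend on which libraries enter. Without the 12 libraries with raised acinar or muscle markers, 3 genes (Fasn, Aacs and Thrsp) fell in vehicle against control, 1 (Fasn) rose after T3 and 4 (Fasn, Aacs, Thrsp and Acaca) rose after T3+T4 against vehicle. That fit had 5 T4, 4 T3, 3 T3+T4, 3 vehicle and 4 control livers. In these 3 comparisons it called 689, 83 and 685 of all genes, beside 1642, 1155 and 2692 with every library. In animals 54 to 85 alone, 2 of the 10 genes rose after T3 and the same 6 after T3+T4 against vehicle, where 167 and 794 of all genes were called. Outside that range were T4 animals 40, 43 and 46, vehicle animals 37, 38 and 2019, and control animals 42, 47, 49 and 50. All T3 and T3+T4 animals lay within it, so treatment and animal number cannot be fully told apart. The subset of animals 54 to 85 keeps 2 vehicle livers and 1 control liver, and the lone control liver is assumed to vary like the other groups. In vehicle against control 0 of the 10 and 3 of all genes were then called, with log2 fold changes of -1.43 for Fasn, -1.37 for Aacs, -0.33 for Acaca and -2.90 for Thrsp. Without the 4 libraries of differing sex, 5 genes fell in vehicle against control, 4 rose after T3 and 6 after T3+T4, where 1100, 763 and 2113 of all genes were called. The sum of the 7 muscle markers was 2.64 to 252 CPM after T4, 5.68 to 424 after T3, 2.39 to 85.4 after T3+T4, 2.22 to 11.7 in vehicle and 2.02 to 3.43 in control livers. The sum of the 7 acinar markers was 1.94 to 11.9 CPM after T4, 2.71 to 14.7 after T3, 3.52 to 181 after T3+T4, 3.68 to 197 in vehicle and 3.12 to 74 in control livers. At the lowest count throughout a group were 3 of 7 acinar markers in T3 livers and 2 of 7 muscle markers in control livers.

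**Figure D3:**
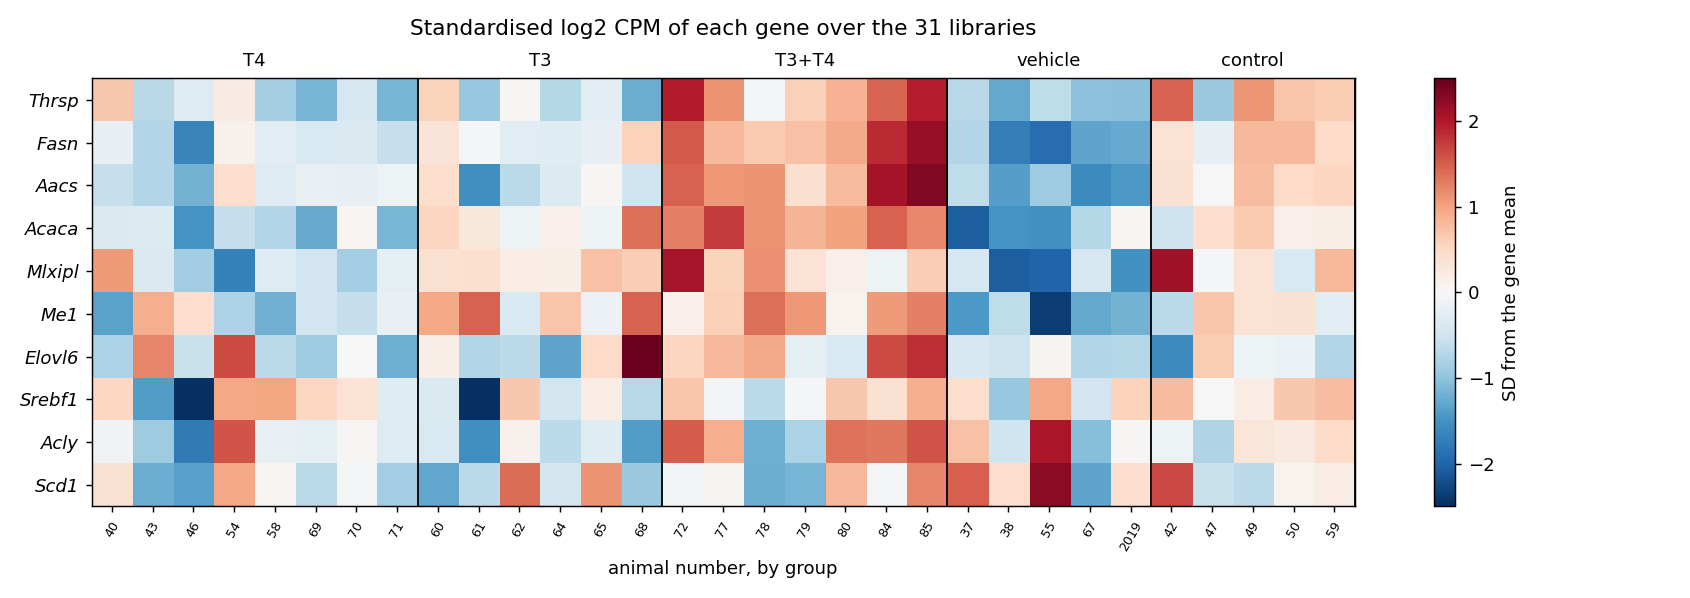
Log2 CPM of each gene (rows) in each liver (columns, by group and animal number), standardised over the 31 libraries, so that the colour gives SD above (red) or below (blue) the gene's mean. Thrsp, Fasn, Aacs and Acaca are red in most T3+T4 livers and blue in most vehicle livers, while Srebf1, Acly and Scd1 vary from liver to liver within each group.

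Within groups the 10 genes did not vary as 1 block. For each library the deviation of log2 CPM from its group mean was taken, and Pearson's r and Spearman's rho were computed over the 31 libraries for all 45 pairs, with p-values from 100000 permutations within groups, adjusted over the 45 pairs. Of these, 15 pairs had an adjusted p of r under 0.05, 11 positive and 4 negative. Srebf1, Acly and Scd1 varied together: r was 0.72 (rho 0.71) for Srebf1 and Acly, 0.64 (rho 0.75) for Srebf1 and Scd1, and 0.76 (rho 0.74) for Acly and Scd1, with adjusted permutation p = 0.00022, 0.00081 and 0.00022. The unadjusted p of 1e-05 for the first and last of these is the smallest that the permutations can give. Without the 2 libraries farthest from the median of the first gene these r were 0.73, 0.73 and 0.73. Me1 ran against them, with r of -0.75 (rho -0.79) with Srebf1, -0.71 (rho -0.74) with Scd1 and -0.62 (rho -0.60) with Acly (adjusted permutation p = 0.0003, 0.00045 and 0.0012), and -0.78, -0.67 and -0.63 without the 2 farthest libraries. Fasn and Aacs varied together (r = 0.67, rho 0.62, adjusted permutation p = 0.001; 0.57 without the 2 farthest libraries), and so did Acly and Aacs (r = 0.67, rho 0.68, adjusted permutation p = 0.001; 0.67 without them). Within animals 54 to 85 (20 libraries) r was 0.67 for Srebf1 and Acly, 0.64 for Srebf1 and Scd1, -0.71 for Srebf1 and Me1 and 0.60 for Fasn and Aacs. Control animal 59, the lone control in that range, was left out of these. In the 10 livers outside the range, vehicle animal 2019 among them, r was 0.82, 0.68, -0.79 and 0.88 in the same order. Mlxipl had no pair with an adjusted p under 0.05. The values of a library share its scaling.

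**Figure D4:**
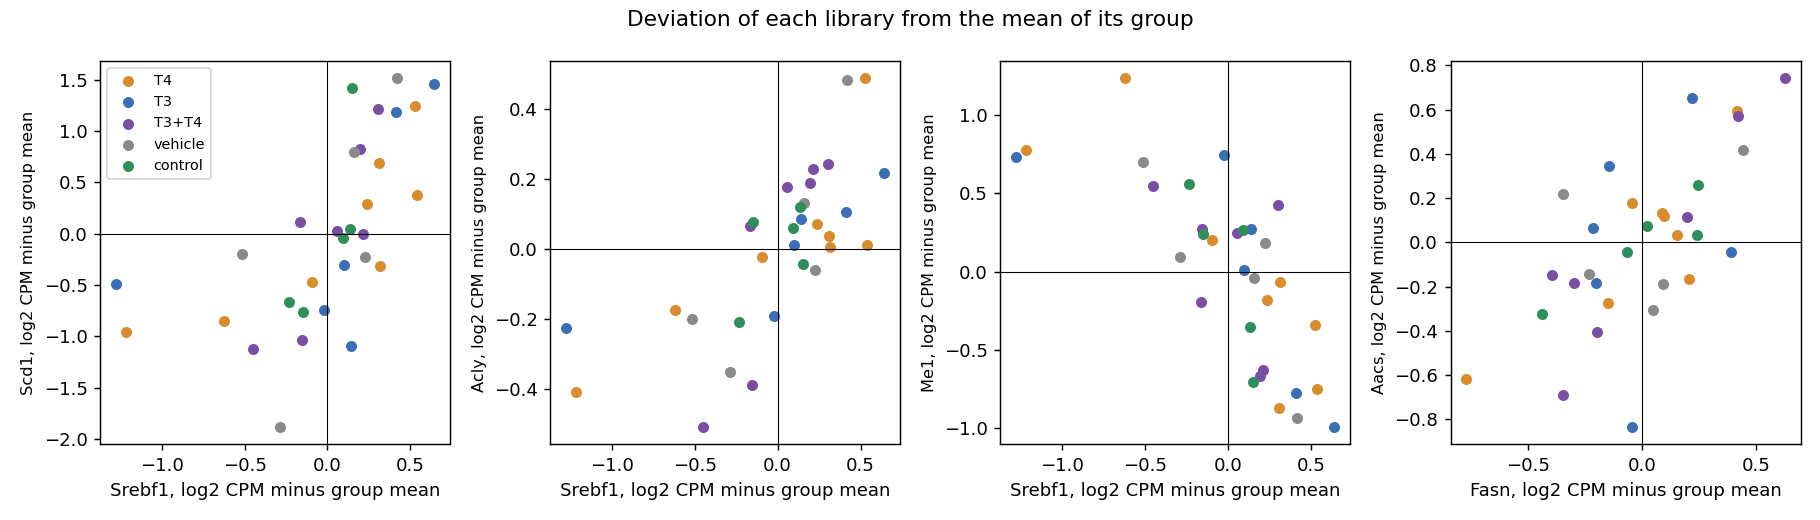
Deviation of each library from its group mean in log2 CPM, for 4 pairs of genes over the 31 livers, coloured by group. Scd1 and Acly rise with Srebf1 (r = 0.64 and 0.72), Me1 runs the other way (r = -0.75), and Aacs rises with Fasn (r = 0.67).

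The same deviations were compared with the mean of 9 genes induced by fasting, such as Cyp4a14, a fatty acid hydroxylase, and Igfbp1, an IGF binding protein. Within groups this mean ran against Acly (r = -0.77, rho -0.68), Srebf1 (r = -0.73, rho -0.67) and Aacs (r = -0.73, rho -0.72) and with Me1 (r = 0.62, rho 0.58), with adjusted permutation p = 0.0001, 0.00017, 0.0001 and 0.0018 over the 10 genes. Without the 2 farthest libraries r was -0.79, -0.69, -0.68 and 0.60. For Scd1, Fasn and Thrsp r was -0.61, -0.53 and -0.48 (rho -0.56, -0.48 and -0.50, adjusted permutation p = 0.0018, 0.0096 and 0.0096), and without the 2 farthest libraries it was -0.56, -0.41 and -0.45. For Fasn r was -0.23 in animals 54 to 85 (20 libraries) and -0.88 in the 10 livers outside that range. For Acly, Srebf1, Aacs and Me1 it was -0.79, -0.59, -0.71 and 0.60 in animals 54 to 85 and -0.91, -0.90, -0.72 and 0.76 in the others, and for Scd1 and Thrsp it was -0.64 and -0.69, beside -0.58 and -0.69. Feeding before sampling is not given in the labels. Of the 9 fasting genes, 0 rose and 4 fell after T3+T4 against vehicle (7.33% and 8.45% of all genes). Among those that fell were Cyp4a14 (-0.88 ± 0.14, adjusted p = 6.5e-05) and Igfbp1 (-0.47 ± 0.09, adjusted p = 0.00072). In vehicle against control 2 rose and 0 fell (4.92% and 4.71% of all genes). The 2 were Cyp4a14 (0.60 ± 0.15, adjusted p = 0.0101) and Igfbp1 (0.33 ± 0.10, adjusted p = 0.0334). After T4 against vehicle 0 of 9 were called, where 0.211% of all genes rose and 0.199% fell.

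Of 10 genes of carbon and NADPH supply, 3 fell in vehicle against control, where 4.71% of all genes fell. Against vehicle 4 rose after T3+T4 (7.33% of all genes). There were 0 called after T4 (0.211% of all genes rose and 0.199% fell) and 0 after T3 (3.53% and 3.24%). Tkt fell by 0.33 ± 0.07 in vehicle against control (adjusted p = 0.00355), rose by 0.40 ± 0.07 after T3+T4 against vehicle (adjusted p = 0.000156) and was 0.37 ± 0.06 above T3 after T3+T4 (adjusted p = 0.0197). Idh1, the cytosolic isocitrate dehydrogenase, changed by -0.31 ± 0.09 and 0.31 ± 0.09 in the first pair of comparisons (adjusted p = 0.0298 and 0.0135), and Pklr, the liver pyruvate kinase, by -0.55 ± 0.17 and 0.54 ± 0.16 (adjusted p = 0.0412 and 0.0206). Acss2, which makes acetyl-CoA from acetate, was 0.63 ± 0.16 higher after T3+T4 than after T4 (adjusted p = 0.0159).

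Of 9 tested genes of elongation and desaturation, 5 fell in vehicle against control (4.71% of all genes). Against vehicle 2 rose after T4, 2 after T3 and 4 after T3+T4 (0.211%, 3.53% and 7.33% of all genes). Fads1 and Fads2, the desaturases of polyunsaturated fatty acids, rose under all 3 treatments. Fads1 rose by 0.41 ± 0.09 after T4 (adjusted p = 0.0339), 0.42 ± 0.09 after T3 (adjusted p = 0.00629) and 0.47 ± 0.09 after T3+T4 (adjusted p = 0.000712), and fell by 0.58 ± 0.10 in vehicle against control (adjusted p = 0.000271). Fads2 rose by 0.34 ± 0.08, 0.33 ± 0.08 and 0.39 ± 0.08 in the same treatments (adjusted p = 0.0474, 0.018 and 0.00177). Without the 12 libraries with raised acinar or muscle markers, 1 of all genes was called after T4 against vehicle, beside 70 with every library. The T4 calls of Fads1 and Fads2 therefore cannot both hold there, and neither was examined in that fit. Elovl3, an elongase of very long chains, averaged 0.386 CPM after T4, 0.722 after T3, 4.94 after T3+T4, 0.271 in vehicle and 3.08 in control livers. Its mean deposited count in vehicle livers was 1.4, next to the lowest value of 1 in the table, so no fold is given for its calls, lower in vehicle against control and higher in T3+T4 against vehicle.

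Among 7 tested paralogs of the 10 genes, 2 fell in vehicle against control (4.71% of all genes). Against vehicle 1 rose after T3 and 2 rose after T3+T4 (3.53% and 7.33% of all genes). After T4 against vehicle 0 were called (0.211% of all genes rose and 0.199% fell). Srebf2, the regulator of cholesterol synthesis, fell by 0.79 ± 0.16 in vehicle against control (adjusted p = 0.00261) and rose by 1.01 ± 0.15 after T3+T4 against vehicle (adjusted p = 5.43e-05), where Srebf1 was at 0.06 ± 0.25. Mid1ip1, a relative of Thrsp that promotes polymerisation of acetyl-CoA carboxylase, changed by -0.58 ± 0.13 and 0.60 ± 0.12 in these comparisons (adjusted p = 0.00553 and 0.00145). Acacb, the mitochondrial acetyl-CoA carboxylase, rose after T3 against vehicle (2.38 ± 0.57, adjusted p = 0.012), with T3 livers from 11.2 to 162 CPM and a median of 17.8 beside 5.09 to 20.8 CPM in vehicle livers.

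Of 13 genes that control SREBP-1c and ChREBP, 0 were called in vehicle against control and 0 after T4 against vehicle with edgeR. Of all genes 4.92% rose and 4.71% fell in the first comparison, and 0.211% rose and 0.199% fell in the second. After T3 against vehicle 1 of the 13 rose and 1 fell (3.53% and 3.24% of all genes). After T3+T4 against vehicle 1 rose and 0 fell (7.33% and 8.45% of all genes). Scap, the SREBP escort protein, rose after T3 (0.36 ± 0.10, adjusted p = 0.0289) and T3+T4 against vehicle (0.31 ± 0.10, adjusted p = 0.0314), and Fbxw7, which marks SREBP for degradation, fell after T3 (-0.25 ± 0.06, adjusted p = 0.0145). Insig1, which holds SREBP in the endoplasmic reticulum, was 0.98 ± 0.28 higher after T3+T4 than after T4 (adjusted p = 0.0274). Of the thyroid hormone receptors, Thra rose in vehicle against control (0.37 ± 0.07, adjusted p = 0.00123) and fell after T3 (-0.37 ± 0.07, adjusted p = 0.00149) and T3+T4 against vehicle (-0.34 ± 0.07, adjusted p = 0.000813), and Thrb was called in 0 comparisons. Of 10 tested genes of triglyceride synthesis and storage, 1 rose in vehicle against control, where 4.92% of all genes rose. After T3 against vehicle 1 fell, where 3.24% of all genes fell. Cidec, a lipid droplet protein, rose by 2.37 ± 0.72 in vehicle against control (adjusted p = 0.0361) and by 3.03 ± 0.69 in T4 against control (adjusted p = 0.0145), and was 2.36 ± 0.56 lower after T3+T4 than after T4 (-2.36, adjusted p = 0.0093). Gpam, the first acyltransferase of triglyceride synthesis, fell by 0.46 ± 0.14 after T3 against vehicle (adjusted p = 0.0461).

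Among the 5 genes whose pattern over the 31 libraries was most like the mean of the 10 standardised genes, out of 11770 genes with a mean of at least 5 CPM, were Lrp3 (r = 0.928), Podn (r = 0.886), Selenbp2 (r = 0.885) and Slc22a29 (r = 0.882), described here across libraries that include the group differences and with no test. Lrp3 averaged 50.1 ± 10.4 CPM after T4, 59.1 ± 7.48 after T3, 83.4 ± 15.1 after T3+T4, 39.2 ± 5.24 in vehicle and 73.8 ± 6.47 in control livers. Each of the 10 genes was also set against the mean of the other 9 over the 31 libraries: Aacs (r = 0.899), Fasn (r = 0.895) and Thrsp (r = 0.802) were closest to it, and Me1 (r = 0.246) and Scd1 (r = 0.108) farthest.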

How the data were processed

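Counts per gene were deposited by the authors as whole numbers for 43629 genes in 31 libraries; the lowest value in every column is 1 (50.1% of values) and values level off near 2 counts per exonic base, and the reason for either is not stated. The submitters' processing notes name BWA 0.7.10, Trimmomatic, bcl2fastq and DESeq and give a human genome build; mm10, the mouse build, stands in the column names. RNA was taken with TRIzol and made into stranded mRNA libraries, per the labels' protocols; the use of strand in counting is not given in the sources used here. Groups followed the source names, and each library is 1 animal, so p-values measure the spread between animals. Deposited counts were filtered with filterByExpr, scaled by TMM and tested by quasi-likelihood (glmQLFTest of edgeR 4.0.16, R 4.3.3) in 1 fit over all 31 libraries, for 10 comparisons, with Benjamini-Hochberg adjustment at 0.05. Lengths and positions came from GENCODE M21 (97.3% of gene IDs matched), promoters from RefSeq. The scripts were tested on simulated data. Alternatives were other scalings and filters, compared groups only, DESeq2 1.42.0, 1 subtracted from each count, corrected counts near the ceiling, library total as a covariate, animals 54 to 85 only, leaving out the 12 libraries with acinar or muscle markers at a mean of at least 5 CPM, and leaving out each library in turn. The settings on sex were chosen after seeing the data. All 10 genes are named in every comparison; from each other list up to 3 called genes with the smallest adjusted p are named, with Thrb added after its values were seen, and some genes are not reported here. The genes, lists and alternatives were chosen with earlier results of these data known.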

Additional observations from a re-analysis of the deposited data

Results flagged for a closer look

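In 4 of 50 sets of values (10 genes in 5 groups) the highest library stood apart from its group by Dixon's test. For normally distributed values chance alone does this in about 1 of 20 groups. The test was made on CPM without a log, where that rate need not hold. Acly was at 216 CPM in T4 animal 54, where the next T4 liver had 162 CPM. That library also had the highest sum of white adipocyte markers (93.8 CPM) and raised muscle markers, and its labelled sex differed from its sex genes. Elovl6 was at 133 CPM in T3 animal 68, another library of differing sex, where the next T3 liver had 57 CPM. Without that library Elovl6 in T3 against control was -0.03 in place of 0.44. Mlxipl was at 246 CPM in T4 animal 40 and at most 196 CPM in the other T4 livers. Without it Mlxipl passed in T3+T4 against T4 (0.35, adjusted p = 0.0123) and in T4 against control (-0.33, adjusted p = 0.0402), with edgeR in both. Scd1 was at 378 CPM in control animal 42, and the next control liver had 146 CPM. Without it Scd1 in T4 against control was 0.03 in place of -0.53.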

How the results depend on the processing

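Over the 10 comparisons the number of the 10 genes called with 1 library left out (with the range over all genes in brackets) was 4 to 6 (935 to 1604) in vehicle against control, 0 to 0 (14 to 93) in T4 against vehicle, 3 to 4 (622 to 1570) in T3 against vehicle, 6 to 6 (1879 to 2831) in T3+T4 against vehicle and 0 to 2 (27 to 342) in T4 against T3. It was 4 to 6 (947 to 1738) in T3+T4 against T4, 0 to 3 (0 to 110) in T3+T4 against T3, 0 to 3 (165 to 1024) in T4 against control, 0 to 0 (8 to 267) in T3 against control and 0 to 0 (0 to 4) in T3+T4 against control. Other settings moved a count by over 1.5 times in these cases. Animals 54 to 85 alone gave 0 in vehicle against control, 2 in T3 against vehicle, 0 in T3+T4 against T3 and 0 in T4 against control; both comparisons with control rest on 1 control library, and the log2 fold changes were -1.43 (Fasn, vehicle against control), -0.53 (Fasn, T4 against control) and 1.34 (Aacs, T3+T4 against T3). Leaving out the acinar or muscle libraries gave 3 in vehicle against control, 1 in T3 against vehicle and 0 in T4 against control. T3+T4 against T3 gave 0 with the compared groups only, 2 with the ceiling corrected, no filter or the libraries of differing sex left out, and 3 with DESeq2 or library total as a covariate. T4 against control gave 0 with library total alone, no filter or sex as a covariate, and 2 with DESeq2 or library total as a covariate; T4 against T3 gave 1 with DESeq2. The fit with no filter still left out genes at the lowest value in every library. Fewer samples enter the fits that leave libraries out; the cause of the other shifts was not tested. Log2 fold changes that changed sign were all uncalled. With library total as a covariate they were -0.05 (Me1, T3+T4 against T3), -0.06 (Mlxipl), 0.27 (Scd1) and 0.17 (Srebf1) in T3+T4 against control, 0.17 (Scd1, T3 against control) and 0.10 (Scd1, T3+T4 against T3). In animals 54 to 85 they were 0.24 (Elovl6, vehicle against control), -0.04 (Mlxipl, T3+T4 against control), 0.02 (Scd1, T3 against control), -0.11 (Srebf1, T3+T4 against T4) and 0.11 (Srebf1, T4 against vehicle). Without the acinar or muscle libraries they were 0.12 (Elovl6, vehicle against control), -0.19 (Me1, T3+T4 against T3) and 0.71 (Thrsp, T4 against T3). Without the libraries of differing sex they were -0.11 (Aacs, T4 against T3), -0.01 (Acaca, T3 against control), and for Elovl6 -0.03 in T3 against control, 0 in T4 against control and 0.03 in T4 against T3. With no filter Aacs in T4 against T3 was -0.03. With 1 library left out, ranges that crossed 0 were -0.11 to 0.18 (Aacs, T4 against T3), -0.01 to 0.07 (Acaca, T3 against control), -0.06 to 0.17 (Acly, vehicle against control), -0.12 to 0.19 (Me1, T3+T4 against T3) and -0.61 to 0.59 (Thrsp, T4 against T3). For Elovl6 they were -0.03 to 0.62 (T3 against control), 0 to 0.40 (T4 against control), -0.44 to 0.24 (T4 against T3) and -0.26 to 0.08 (vehicle against control). For Mlxipl they were -0.12 to 0.05 (T3 against control) and -0.05 to 0.13 (T3+T4 against control). For Scd1 they were -0.54 to 0.39 (T3 against control), -0.48 to 0.33 (T3+T4 against control), -0.77 to 0.03 (T4 against control), -0.32 to 0.32 (T3+T4 against T3) and -0.61 to 0.02 (T4 against T3). For Srebf1 they were -0.01 to 0.18 (T3+T4 against T4), -0.05 to 0.17 (T3+T4 against vehicle) and -0.16 to 0.08 (T4 against vehicle). No paired analysis was made. The replicate numbers are animal numbers, so they hold no pairing, and the sample labels used here give no litter. Litter was therefore not in the fits, and pups of the same litter may not be independent.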
